A study of Mus musculus with 2 samples.

Results

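Open chromatin was described at 8 genes for transcription factors of forebrain excitatory neurons: Emx1, Emx2, Lhx2, Cux2, Zbtb18, Fezf2, Bcl11a and Bcl11b. The genes were listed by name, and all 8 were found among the 21853 protein-coding genes of GENCODE M21 on mouse assembly GRCm38, which is mm10. The assay was DNase-seq: DNase I, an endonuclease, is given to isolated nuclei, cleaves where nucleosomes leave the DNA bare, and the cleaved ends are read by sequencing. Hippocampus was taken from male mice aged 2 months of strain B6CASTF1/J, F1 hybrids of a B6 and a CAST parent. The labels speak of a layer of the hippocampus without naming it, and they list no treatment. There was 1 group, of 2 biological replicates from separate biosamples that share a donor entry, so no comparison between groups and no test was possible, and differences between the replicates may be partly technical. Both parental alleles were read on 1 assembly, so every value pools them.

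Excitatory neurons of the cortex and hippocampus arise from progenitors of the dorsal forebrain that first express homeobox genes such as Emx1, Emx2 and Lhx2. Zinc finger and CUT homeobox factors, among them Fezf2, Bcl11a, Bcl11b and Cux2, then direct daughter neurons toward separate layers and targets, and some stay active in mature neurons. An accessible promoter is a common feature of genes in use or ready for use, and accessible sites away from promoters often are enhancers, silencers or sites bound by CTCF, a zinc finger protein that anchors chromatin loops.

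A pair of sets is shown as sequence, read from the RefSeq genome GRCm38.p6 on the plus strand. The first set holds the highest accessible site found in both replicates away from any promoter, because these sites carry the greatest heights at several of the genes. Capitals mark footprints, short stretches protected from DNase I inside open chromatin, where the footprints of both replicates overlapped. Untranslated regions were left out, so the Fezf2 site is shown in part and none is shown for Zbtb18, whose only such site lies in an exon.
Emx1 upstream, chr6:85160301-85160500: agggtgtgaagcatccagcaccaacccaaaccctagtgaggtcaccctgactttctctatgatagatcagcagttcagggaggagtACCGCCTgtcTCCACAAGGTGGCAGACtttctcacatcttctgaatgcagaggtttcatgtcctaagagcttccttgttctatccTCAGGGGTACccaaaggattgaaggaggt
Emx2 upstream, chr19:59418141-59418320: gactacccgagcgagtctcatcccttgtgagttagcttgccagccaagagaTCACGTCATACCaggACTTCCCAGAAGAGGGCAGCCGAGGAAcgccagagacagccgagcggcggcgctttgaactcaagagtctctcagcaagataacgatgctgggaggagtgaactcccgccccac
Lhx2 downstream, chr2:38376061-38376227: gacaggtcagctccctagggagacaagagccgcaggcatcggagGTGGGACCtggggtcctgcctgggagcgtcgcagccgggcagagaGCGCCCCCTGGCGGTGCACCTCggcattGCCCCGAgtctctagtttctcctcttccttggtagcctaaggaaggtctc
Cux2 upstream, chr5:122089001-122089200: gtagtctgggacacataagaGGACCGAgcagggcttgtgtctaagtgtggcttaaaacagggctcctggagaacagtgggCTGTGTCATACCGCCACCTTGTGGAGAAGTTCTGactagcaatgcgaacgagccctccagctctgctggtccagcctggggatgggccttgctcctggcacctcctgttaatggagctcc
Fezf2 downstream, chr14:12296501-12296621: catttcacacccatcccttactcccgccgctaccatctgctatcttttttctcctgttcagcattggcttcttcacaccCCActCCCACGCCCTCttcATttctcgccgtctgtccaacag
Bcl11a upstream, chr11:24049341-24049500: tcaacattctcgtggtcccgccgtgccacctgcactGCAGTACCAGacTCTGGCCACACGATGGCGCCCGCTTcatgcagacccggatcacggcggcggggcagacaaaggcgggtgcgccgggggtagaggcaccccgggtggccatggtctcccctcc
Bcl11b intron, chr12:107998861-107999017: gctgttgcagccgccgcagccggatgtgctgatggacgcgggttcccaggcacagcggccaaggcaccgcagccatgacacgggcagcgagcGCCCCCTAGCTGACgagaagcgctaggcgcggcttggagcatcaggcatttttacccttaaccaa

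The second set shows 3 promoters: the highest (Zbtb18), the lowest that was open in both replicates (Cux2) and the only one with a peak in 1 replicate alone (Fezf2). Capitals mark footprints of both replicates at Zbtb18 and Cux2, and a footprint of replicate 2 at Fezf2. All 3 are shown in part, Cux2 without its untranslated region and the others as 300 bases each.
Zbtb18 promoter, chr1:177441891-177442190: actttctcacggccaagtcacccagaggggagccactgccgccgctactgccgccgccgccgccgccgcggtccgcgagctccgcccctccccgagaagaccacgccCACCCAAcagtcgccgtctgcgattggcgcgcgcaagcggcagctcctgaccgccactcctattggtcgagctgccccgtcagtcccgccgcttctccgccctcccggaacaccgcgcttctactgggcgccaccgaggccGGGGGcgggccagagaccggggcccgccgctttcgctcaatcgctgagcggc
Cux2 promoter, chr5:122050103-122050200: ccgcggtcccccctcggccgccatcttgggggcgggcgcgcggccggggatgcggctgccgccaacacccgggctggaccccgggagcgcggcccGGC
Fezf2 promoter, replicate 2, chr14:12346129-12346428: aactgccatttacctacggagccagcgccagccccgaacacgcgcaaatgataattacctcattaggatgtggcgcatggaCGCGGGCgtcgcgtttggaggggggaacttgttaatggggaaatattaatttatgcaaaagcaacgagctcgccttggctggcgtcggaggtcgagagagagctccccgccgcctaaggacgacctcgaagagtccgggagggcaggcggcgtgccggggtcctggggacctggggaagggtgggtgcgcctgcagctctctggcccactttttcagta

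The deposited lists held 132685 peaks in replicate 1 and 59880 in replicate 2, with 255536 and 111355 footprints. Peak height is the authors' signal value. Within a replicate it rises in whole steps of 0.00535 or 0.0108, and if 1 step is 1 cut and heights are scaled as in CPM, depth would be 187 M and 93.0 M cuts. This is an inference: the sources used here do not give the depth. A shared site is the overlap of a replicate 1 peak with a replicate 2 peak by at least 1 bp, and 50780 were found. In what follows heights are given for replicate 1 and then replicate 2. Marker genes of cell types were listed with earlier results of these data known, so their counts are no independent check of the tissue label. Promoters were open in both replicates at 57.1% of all protein-coding genes. Among the markers they were open in both at 5 of 6 excitatory neuron genes, 2 of 3 dentate granule cell genes and 2 of 4 CA field genes. The same held for 1 of 9 interneuron genes, 2 of 5 astrocyte genes, 2 of 5 oligodendrocyte genes, 0 of 4 microglial genes, 0 of 4 endothelial genes and 1 of 6 genes of other brain regions.

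The promoters of 7 of the 8 genes were open in both replicates, which means that a shared site came within 500 bp of some protein-coding start. Across all protein-coding genes this share was 57.1%. Fezf2 was the exception, with a promoter peak in replicate 2 and none in replicate 1. Where each peak had to overlap the other by 50% of its length, 4 genes were open (43.8% of all genes), and Emx1, Bcl11a and Cux2 also lost the call. In replicate 2 alone a peak was called at all 8 promoters (58.5% of all genes), and in replicate 1 alone 7 did, against 63.4%. The promoters were mostly low for open ones. The median height of the highest promoter site was 4.05 and 2.45 over all open genes, and of the 7 genes only Zbtb18 lay above both values. In bulk tissue a low peak from few cells with open chromatin cannot be told apart from partly open chromatin in many cells.

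**Figure D1:**
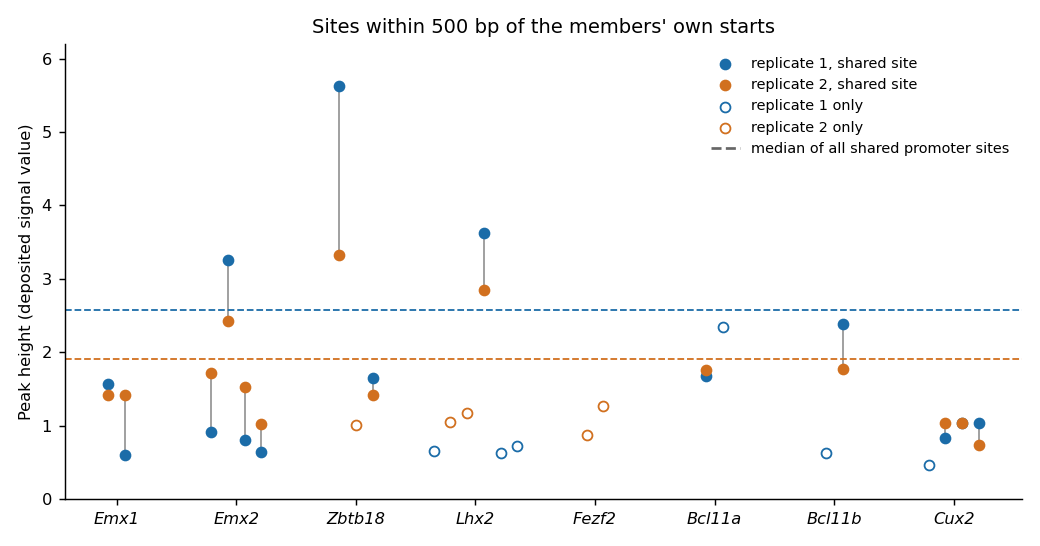
Heights (deposited signal value) of all sites within 500 bp of the starts of each gene, with replicate 1 in blue and replicate 2 in orange. Filled points joined by a line are 1 site in both replicates, open points were found in 1 replicate, and the dashed lines are the medians of all shared promoter sites, 2.57 in replicate 1 and 1.90 in replicate 2. Zbtb18 reaches 5.63 and 3.33, the 3 shared Cux2 sites stay at or below 1.04, and Fezf2 has points of replicate 2 only.

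Emx1 and Emx2 are homeobox genes related to the fly head gene empty spiracles, and Emx2 is needed for growth of the hippocampus. Emx1 (chr6:85187438-85204462, plus strand) had a shared site of 1.57 and 1.41 over its only annotated start and another of 0.599 and 1.41 in an exon. Both rested on the same broad peak of 1100 bp in replicate 2, while the replicate 1 peak over the start was 300 bp wide. The second of these sites covers the start that RefSeq gives for Emx1, at position 85187931. Placed among all open genes by the mean of the replicates, the Emx1 promoter stood at the 18.1 percentile.

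Emx2 (chr19:59458372-59465357, plus strand) had 4 shared sites at its 2 starts, the most of the 8 genes. The highest, 229 bp into the gene, measured 3.26 and 2.43 and covers the RefSeq start. The other 3 were higher in replicate 2: 0.909 and 1.71 at 171 bp before the start, 0.808 and 1.53 over the internal start, and 0.642 and 1.02 in an intron. A further site 861 bp before the start measured 3.98 and 1.67, higher in replicate 1. Neighbouring sites of the gene thus differed in which replicate was higher. The antisense gene Emx2os overlaps the promoter, and DNase-seq does not tell the strands apart.

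Lhx2, a LIM homeobox gene that gives the cortical field its identity, showed its highest promoter site not at its 5′ end but at an internal start. That site, chr2:38351021-38351240, measured 3.62 and 2.85 and lies 68 bp from the internal RefSeq start at 38351308. At the 5′ start (38339281) each replicate had a peak, 0.652 in replicate 1 and 1.05 in replicate 2, but these peaks lay beside each other without overlap. The nearest shared site to this start was 8980 bp away. The call of an open Lhx2 promoter thus rests on an internal start, which GENCODE places at 38350759. In replicate 2 alone a further peak of 1.17 lay 232 bp from this start. At another internal start, 38352532, replicate 1 had 2 overlapping peaks of 0.626 and 0.717, and replicate 2 had none.

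Cux2, a CUT homeobox gene known for upper-layer cortical neurons, had the lowest promoter among the open 7, at the 9.7 percentile of open genes. Its 3 shared sites around the 5′ end measured 0.824 and 1.03, 1.04 and 1.03, and 1.03 and 0.732. The first 2 of them rested on the same peak in replicate 2. The GC content of the 3 sites over 200 bp was between 72.0% and 81.0%, and the promoter sequence printed above comes from the middle one. Of its 3 internal starts, 2 (122002344 and 122047825) had no peak in either replicate and the remaining start (121924921) had a replicate 1 peak of 0.465.

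Zbtb18 encodes a zinc finger repressor needed for the maturation of cortical and hippocampal neurons. Its promoter was the highest of the 8 genes, 5.63 and 3.33, at the 71.3 percentile of open genes. The site, chr1:177441861-177442220, ends 131 bp before the first of 11 annotated starts and overlaps the antisense gene Gm26801. In replicate 2 alone a peak of 1.01 lay 58 bp from the start at 177442544. A second shared site, over a group of internal starts, was lower than the first and measured 1.65 and 1.42. Its GC content was 48.0%, against 74.5% at the main promoter, so the gene had a GC-rich and a GC-poor promoter site, both found in each replicate.

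Fezf2, a zinc finger gene that directs deep-layer neurons to subcortical targets, had no replicate 1 peak within 500 bp of any of its 3 starts. The false discovery rate (FDR) file of replicate 1, which lists intervals below 0.05, held no interval there either. In replicate 2 a peak of 640 bp and height 1.26 lay 2 bp from the start at 12345959, with a lowest FDR of 9.11e-05, and a second peak of 0.871 lay further inside the gene. A promoter peak in replicate 2 alone was seen at 0.696% of all genes, 152 of them. The RefSeq start of Fezf2 (12345865) was 32256 bp from the nearest shared site.

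Bcl11a and Bcl11b encode related zinc finger proteins, CTIP1 and CTIP2, and Bcl11b marks corticospinal neurons and is also present in CA1 and dentate granule neurons. At Bcl11a the 3 starts at the 5′ end (24078056, 24078117 and 24078173) had no peak and no FDR interval in either replicate within 500 bp. Open chromatin flanked them instead: 2.52 and 1.95 in the site at 24076361, and 1.42 and 1.91 in the site at 24079724. The site at 24076361 lay 1438 bp from the nearest Bcl11a start but 1307 bp from a start of another protein-coding gene. The call of an open promoter came from the internal start at 24080670, where a shared stretch of 38 bp measured 1.68 and 1.76. The RefSeq start of Bcl11a lies 66 bp from this stretch. A replicate 1 peak of 2.34 beside it was not called in replicate 2, where the lowest FDR was 0.0458.

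At Bcl11b the promoter site (chr12:108004101-108004280) measured 2.38 and 1.77 and its near edge was 499 bp from the first start, just inside the window. It was 687 bp from the RefSeq start. In replicate 1 a low peak of 0.620 lay in an exon 427 bp into the gene. With a window of 200 bp in place of 500 bp, 5 of the 8 genes were open in both replicates, without Lhx2, Fezf2 and Bcl11b, against 54.7% of all genes. In the shorter deposited peak lists 5 were also open, without Fezf2, Bcl11a and Bcl11b, against 51.2% of all genes.

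RefSeq promoters (250 bases before to 50 after a start, GRCm38.p6) matched all 8 genes with 14 promoters. Their GC content was between 38.3% at an internal Zbtb18 start and 81.7% at its 5′ start, with 80.3% at the Cux2 5′ start and a median of 52.7% over 32851 promoters of all genes. The 5′ promoters were thus GC-rich at Zbtb18, Cux2, Lhx2 (74.7%) and Emx1 (74.0%). The RefSeq promoters of Emx2 (64.3%), Bcl11a (63.0%) and Fezf2 (61.3%) also lay above the median of 52.7%, while Bcl11b stood at 43.0%.

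Each gene was then described over its body and 50 kb on either side. The windows held 140 peaks of replicate 1, 81 of replicate 2 and 53 shared sites. Emx1 had 10 shared sites, Emx2 8, Lhx2 4, Cux2 14, Zbtb18 3, Fezf2 3, Bcl11a 6 and Bcl11b 5. By density Emx1 and Emx2 stood apart from the other 6 genes, with 8.55 and 7.48 shared sites per 100 kb. Over all protein-coding genes the median was 3.30 and these 2 genes lay at the 90.7 and 86.3 percentiles. Cux2 had 4.77 per 100 kb (67.1 percentile). The remaining genes lay between 2.59 (Bcl11b) and 3.07 (Lhx2), below the median of all genes.

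**Figure D2:**
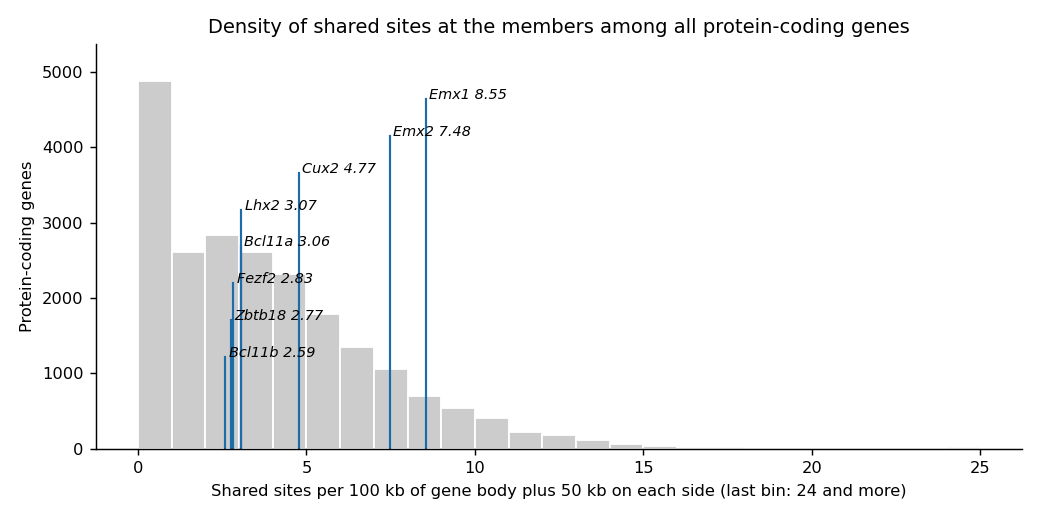
Histogram of all protein-coding genes by shared sites per 100 kb, counted over the gene body and 50 kb to either side, with a blue line at the value of each of the 8 genes. Emx1 (8.55) and Emx2 (7.48) lie in the right tail, Cux2 at 4.77, and the other 5 genes between 2.59 and 3.07.

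Counted over distal sites alone, which lie over 2500 bp from every protein-coding start, the order of the genes changed. The median of the 8 genes was 2.22 distal sites per 100 kb, against 0.954 over all genes. Emx1 had 5.98 (98.6 percentile), Fezf2 2.83 (84.8 percentile) and Emx2 2.80 (84.4 percentile). Zbtb18, with 0.922 (46.7 percentile), was the only gene below the median of all genes. Fezf2 joined a promoter without a shared site with 3 distal shared sites, all of them inside other genes: 1.81 and 1.12 in Gm49355 and 3830406C13Rik, and 1.53 and 0.957 and 0.791 and 0.818 in Cadps. A site near a gene is not shown by these data to act on it. The windows of Emx1 and Cux2 include promoters of Spr, Atxn2, Sh2b3 and Pheta1, and the Bcl11a window holds a start of another protein-coding gene.

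Of the 53 shared sites 14 lay at the genes' own starts, 4 at starts of other genes, 5 between 500 and 2500 bp from a start and 30 were distal. The distal share was 56.6%, against 55.5% of all shared sites. Heights at own starts were low and those at distal sites high against the same class genome-wide. The median at the 14 own-start sites was 1.31 and 1.47, against 2.57 and 1.90 over all promoter sites. The median at the 30 distal sites was 1.73 and 1.14, against 1.27 and 0.871.

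**Figure D3:**
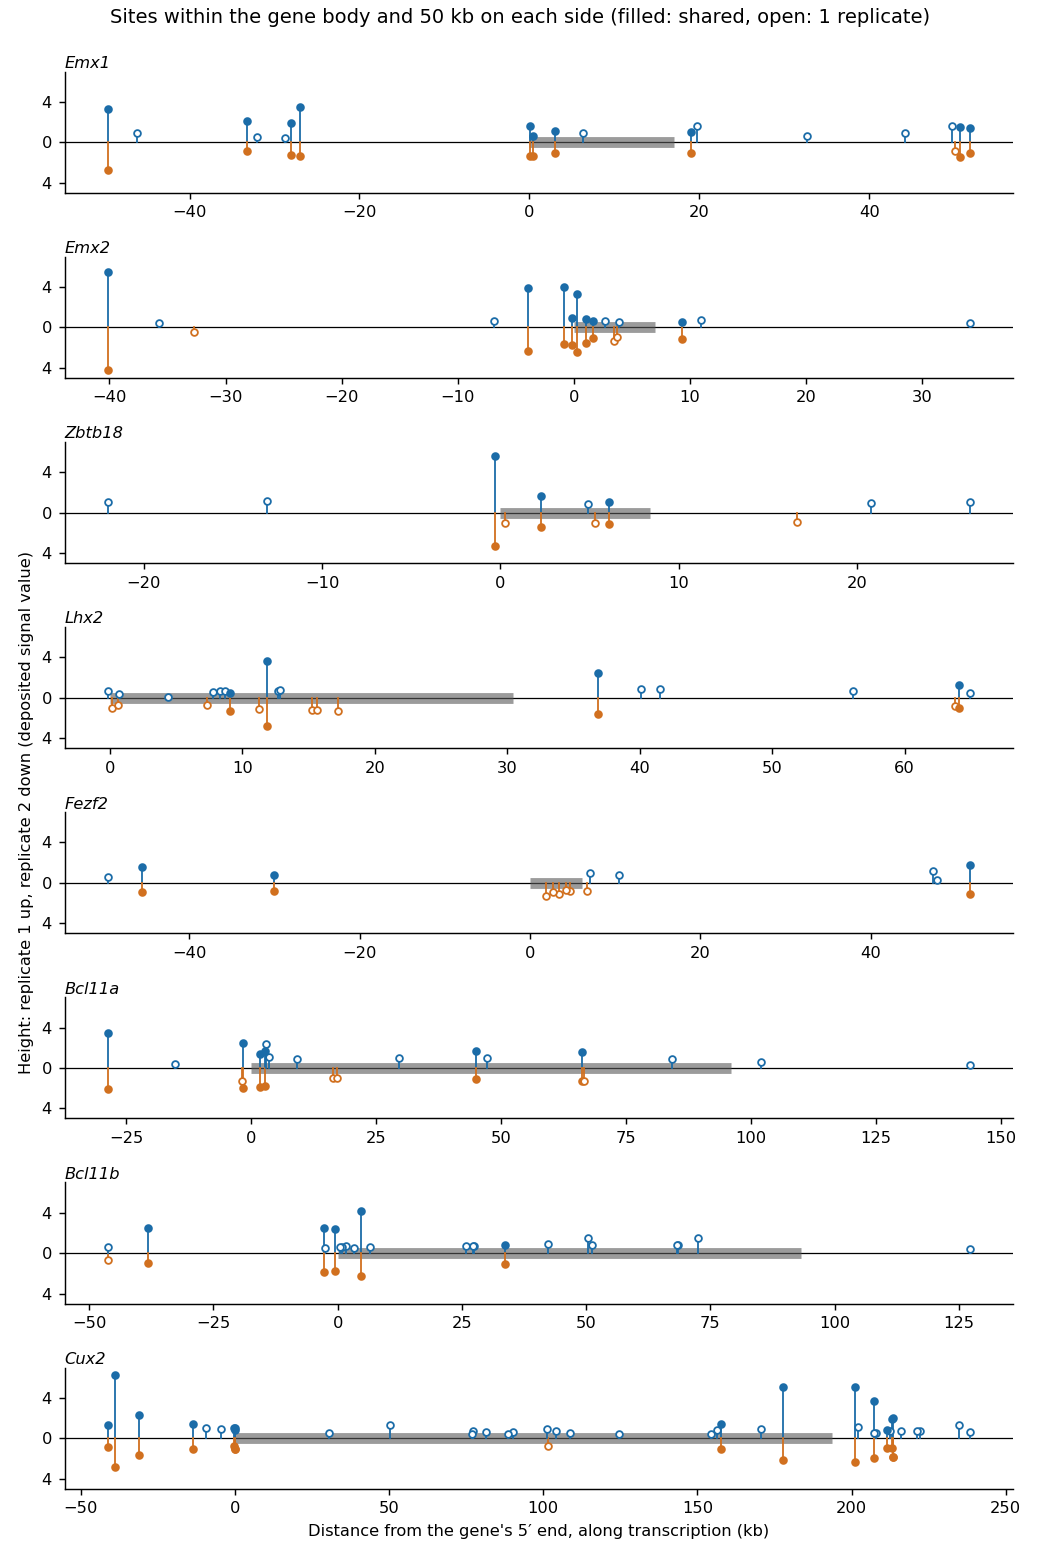
Sites along each gene and 50 kb on each side, by distance from the 5′ end in kb, with replicate 1 heights drawn upward in blue and replicate 2 heights downward in orange (deposited signal value). Filled points are shared sites, open points were found in 1 replicate, and the grey bar is the gene body. The highest points of Cux2 (6.31 and 2.87), Emx2 (5.47 and 4.21) and Bcl11b (4.21 and 2.23) lie away from the 5′ end, and the open orange points of Fezf2 lie in and beside the gene body.

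Among the homeobox genes, the Cux2 site 39.0 kb upstream was the highest of all 53 in replicate 1, with 6.31 and 2.87. It stood at the 98.5 percentile of the 33425 shared sites that are not at a start. Other Cux2 sites also ranked high: 5.11 and 2.15 in an intron 178 kb from the 5′ end (96.4 percentile) and 3.73 and 1.96 downstream of the gene (91.9 percentile). These 3 distal sites were between 3.57 and 6.05 times as high as the Cux2 promoter in replicate 1, and between 1.90 and 2.78 times in replicate 2.

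Emx2 had the highest non-start site by percentile, 40.1 kb upstream, with 5.47 and 4.21 (98.8 percentile). A site 3.96 kb upstream followed with 3.94 and 2.32 (94.0 percentile). Both exceeded the promoter of Emx2 in replicate 1, and the farther of them also did in replicate 2. At Emx1 the site 27.0 kb upstream measured 3.51 and 1.36 (87.6 percentile), with a neighbour 28.1 kb upstream at 1.90 and 1.22. Another Emx1 site of 1.55 and 1.44 lay downstream, 50.7 kb from the 5′ end, in Sfxn5, a mitochondrial carrier gene. Lhx2 had a site of 2.41 and 1.59 downstream, 36.9 kb from its 5′ end (80.8 percentile), lower than its internal promoter in both replicates. Its next non-start sites measured 1.25 and 0.990 at 64.1 kb and 0.481 and 1.32 in an intron at 9.04 kb.

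Among the zinc finger genes, Bcl11b had a site of 4.21 and 2.23 in an intron 4.66 kb from the 5′ end (94.5 percentile), above its promoter in both replicates. Sites 2.85 and 38.2 kb upstream of it measured 2.45 and 1.91, and 2.52 and 0.979. Bcl11a had a site of 3.48 and 2.13 upstream at 28.6 kb, inside the gene A830031A19Rik (91.6 percentile). Zbtb18 showed the reverse order: its only non-start shared site, in an exon 6.07 kb from the 5′ end, measured 1.05 and 1.16 (51.2 percentile), well below its promoter.

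With the lists as deposited, a smaller share of replicate 2 peaks was found in replicate 1 at these genes than genome-wide. Of the 81 replicate 2 peaks 53 overlapped a replicate 1 peak, or 65.4% (exact binomial 95% interval 54.0 to 75.7, counting error only), against 81.8% of all replicate 2 peaks. Of the 140 replicate 1 peaks 53 overlapped a replicate 2 peak, or 37.9% (29.8 to 46.4), against 38.0%. The lists differ in length, and the gap depended on it. With replicate 1 reduced to its highest peaks, as many as replicate 2 has, the shares were 60.5% of replicate 2 peaks, against 64.6% genome-wide, and 55.7% of replicate 1 peaks, against 65.4%. With the full lists the shares were uneven over the genes. At Emx1 11 of 12 replicate 2 peaks were found in replicate 1, at Cux2 13 of 15 and at Bcl11b 5 of 6. At Lhx2 the count was 4 of 12, at Fezf2 3 of 9 and at Zbtb18 3 of 6. Without Lhx2 and Fezf2, left out after their values were seen, the share was 76.7%. This rise had to follow, because these were the genes with the lowest shares.

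**Figure D4:**
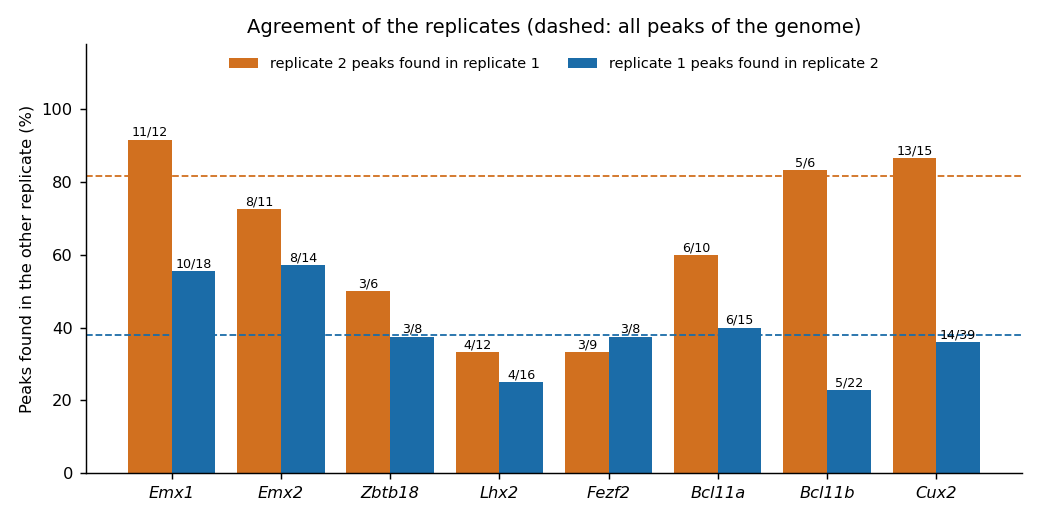
Share of each gene's peaks that overlapped a peak of the other replicate, in percent, with the counts above the bars. Orange bars are replicate 2 peaks found in replicate 1, blue bars replicate 1 peaks found in replicate 2, and the dashed lines are the shares over all peaks (81.8% and 38.0%). Lhx2 and Fezf2 have the lowest orange bars, both 33.3%.

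The 28 peaks found in replicate 2 alone lay mostly in the bodies of the 8 genes themselves, 20 of 28. In the body of any protein-coding gene lay 22 of them (78.6%), against 58.1% of such peaks genome-wide, though the windows used here are centred on genes. Lhx2 held 8 of them, 7 in the gene body, and Fezf2 held 6, 5 of them in exons. The Fezf2 exon peaks were between 0.721 and 1.26 high and lay between positions 12343511 and 12346600, while replicate 1 had no peak in the gene body. The Lhx2 peaks were between 0.753 and 1.30 high. For 4 of the 28 an interval under the FDR of 0.05 was present in replicate 1 (14.3%), against 28.4% of all such peaks, and none of the 4 was at Lhx2 or Fezf2. The median height of the 28 was 0.984, against 0.549 over all peaks of replicate 2 alone.

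The 87 peaks of replicate 1 alone had a median height of 0.706, against 0.503 for all such peaks. In replicate 2 an FDR interval was present at 11 of them (12.6%, against 8.45%). Cux2 held 25 and Bcl11b 17, and in both genes 14 lay in the gene body. At Bcl11b these ran through the introns with heights up to 1.47, so that 22 peaks of replicate 1 faced 6 of replicate 2. The highest peak of replicate 1 alone at any of the genes was the 2.34 beside the Bcl11a start. The highest such peak was 1.62 at Emx1 and 1.18 at Zbtb18. At Emx2 the highest peak of a single replicate was one of 1.31 in replicate 2, in an exon. At Lhx2 a pair of these peaks joined a low height to a very low FDR: 0.406 with 1.87e-29 and 0.102 with 5.89e-09. Among replicate 1 peaks under the median height of 0.663, 5.14% had an FDR under 1e-08. In replicate 2 a pair of Bcl11a intron peaks with heights of 0.947 and 1.01 had FDR values of 1.74e-16 and 2.90e-19 and no counterpart in replicate 1.

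With heights as deposited, most shared sites were higher in replicate 1. The median height was 1.66 and 1.41 at the 53 sites, and the log2 ratio of replicate 2 over replicate 1 had a median of -0.37 (quartiles -0.69 and 0.02), against -0.48 over all shared sites. At 14 of the 53 sites (26.4%) replicate 2 was higher, against 28.7% genome-wide. This direction rests on the scaling, which is unknown: with each replicate's heights divided by its median over all shared sites, the median log2 ratio of the 53 was 0.08. Over the sites in gene bodies alone, with heights as deposited, it was 0, against -0.48 over all shared sites, in gene bodies or not. The own-start sites differed from the distal sites. The median log2 ratio was -0.09 at the 14 own-start sites and -0.51 at the 30 distal sites, where all promoter sites had -0.46 and all distal sites -0.55. GC content moved with this ratio. The median ratio was -0.68 at the 5 sites under 50% GC, -0.42 at 19 sites from 50 to 60%, -0.36 at 18 sites from 60 to 70% and -0.01 at 11 sites above 70%. Over all shared sites the medians of the same GC classes were -0.68, -0.45, -0.46 and -0.3. Over the 53 sites Spearman's rho of the ratio with GC content was 0.40, and over all 50780 shared sites it was 0.17. Height in replicate 1 moved with the ratio too: the 14 sites higher in replicate 2 had replicate 1 heights of at most 1.68. The median replicate 1 height was 1.31 at the own-start sites and 1.73 at the distal sites. Over all called peaks the median height was 0.663 in replicate 1 and 0.936 in replicate 2. These sites come from the same 2 libraries, and the parts of GC content and height in the ratio were not tested. The own-start sites had a median GC content of 70.5%, against 66.0% for all promoter sites, and the distal sites 57.0%, against 52.0%.

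**Figure D5:**
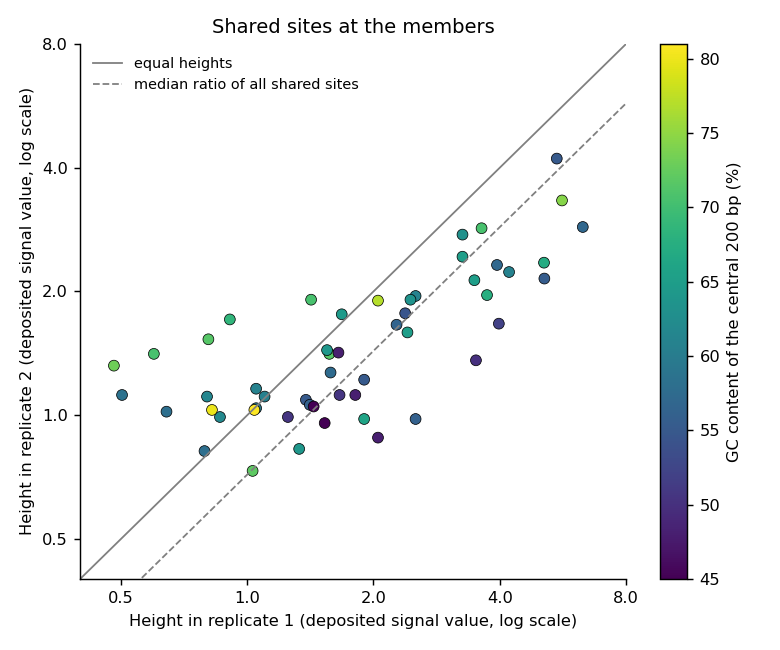
Height of each of the 53 shared sites in replicate 1 and replicate 2 (deposited signal value, log scales), coloured by the GC content of the central 200 bp. The solid line is equal height and the dashed line the median ratio of all shared sites (log2 -0.48). The 14 sites above the solid line have replicate 1 heights of at most 1.68.

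Footprints were found at most of these sites. The windows held 282 footprints of replicate 1, 159 of replicate 2 and 65 stretches shared by both. In the other replicate 19.5% of replicate 1 footprints were found, against 18.4% genome-wide, and 39.6% of replicate 2 footprints, against 45.8%. A shared footprint was present at 32 of the 53 shared sites (60.4%), against 48.6% of all shared sites. Emx1 held 17 shared footprints, Cux2 13, Emx2 10, Bcl11b 9, Bcl11a 7, Lhx2 4, Fezf2 3 and Zbtb18 2. The median length was 7 bp and the longest measured 34 bp, in the upstream Cux2 site printed above.

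Of the 65 shared footprints 9 were at least 15 bp long, and all 9 lay in distal sites. On either strand 8 of the 9 held AGNNGGC, letters that form part of the core that CTCF binds, against 38.2% of the 9964 shared footprints of this length in the genome. The genome share was taken over footprints in sites of every class, not distal sites alone. These letters and this length were chosen after the sequences were seen, so the count is a description. The long footprints in the Emx1, Emx2, Lhx2, Cux2 and Bcl11a sites are among the capitals printed above. The other 4 are given here in capitals throughout, and the Emx2 footprint is the 1 of the 9 without the letters.
Bcl11b 38.2 kb upstream, chr12:108041745-108041761: TAACCACAAGGGGGCGC
Cux2 intron, chr5:121872332-121872354: TCCACCAGCAGGGGGCAGCAGAC
Cux2 downstream, chr5:121842998-121843030: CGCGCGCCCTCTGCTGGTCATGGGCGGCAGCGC
Emx2 3.96 kb upstream, chr19:59454382-59454405: CCACTAGGCGCCGCTGCACACACG
Such a footprint was present in the highest non-start site of 5 of the 8 genes. It was present in 9.23% of all non-start shared sites and in 44.8% of the highest 10% of them. The same letters occur in 64.2% of 200 bp windows at all shared sites. No binding of CTCF was measured.

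Exact letters of 8 motifs were looked for on both strands in the central 200 bp of the shared sites, and a match is a description of the sequence only. AGGGGGC, also part of the CTCF core and always a match to AGNNGGC, was held by 8 of the 53 sites (15.1%), against 10.8% of all shared sites. GGGCGG, the GC box bound by Sp and Klf factors, was held by 17 sites (32.1%, against 27.9%). At distal sites the count was 7 of 30 (23.3%), against 10.4% of all distal sites, and the distal sites of these genes were also richer in GC. CAGATG, an E-box form bound by neuronal bHLH factors and by Zbtb18, was held by 11 sites (20.8%, against 20.2%). Of the distal sites 10 of 30 held it (33.3%), against 29.2% of all distal sites. CAGCTG, another E-box form, was held by 3 sites (5.66%, against 17.0%). TTGGCA, a part of the NFI motif, was held by 5 (9.43%, against 14.7%), TAATTA, read by many homeodomains, by 2 (3.77%, against 2.30%), TGANTCA, the AP-1 motif, by 1 (1.89%, against 5.65%), and GTTGCCA, part of the RFX motif, by none (against 4.38%). In the Zbtb18 promoter printed above GGGCGG occurs 3 times, and in the Fezf2 promoter TAATTA occurs in the replicate 2 peak outside the footprint.

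A list of 35 other regulators of the same neurons gave a frame for the 8 genes. Of the 35, 25 had a promoter open in both replicates (71.4%, against 57.1% of all genes), with median heights of 1.68 and 1.37. The highest were Tle4, a corepressor (12.3 and 6.36), Pou3f3, a POU homeobox gene (5.96 and 2.83), and Id2, an inhibitor of bHLH factors (4.97 and 3.99). A peak in replicate 1 alone was found at 5 genes of the list, against 5.55% of all genes, and peaks of both replicates without overlap at 3, against 0.723%. Some relatives of the 8 genes are on the list. Fezf1, the paralog of Fezf2, and Lhx5, a LIM homeobox relative of Lhx2, had no promoter peak in either replicate. At Lhx9 the peaks of 0.947 and 1.43 did not overlap, and Cux1 had 1.88 and 1.26, higher than Cux2 in both replicates. The 7 open genes of the 8 had medians of 2.38 and 1.77, between those of the list and those of all open genes.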

How the data were processed

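Per the labels, DNase-seq libraries of hippocampus from 2 biological replicates were placed on assembly mm10. The authors deposited for each replicate a longer and a shorter peak list, footprints and a file of FDR values. Peak height is the deposited signal value (column 7). FDR values as deposited were taken as q-values of intervals. In the longer lists the lowest FDR inside a peak was at most 0.0499. Deposited footprints carry the constant 0.01 and were used by position only. Aligner, callers, height scaling and depth were not given in the sources used here, so heights are compared between replicates as deposited.

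The longer lists were used, on the autosomes, X and Y. A shared site was an overlap of at least 1 bp between replicates, with the highest value of each replicate's overlapping peaks as its height. A promoter was open where a shared site came within 500 bp of any start of a GENCODE M21 protein-coding transcript, and the window of a gene was its body plus 50 kb on each side. Percentiles are ranks among all protein-coding genes, open genes or non-start shared sites. The text names all 8 genes with their promoter sites, the 3 highest non-start shared sites of each and its highest site in 1 replicate, and of the 35 context genes the 3 highest and those without a peak. Cux1 and Lhx9 are named as relatives, outside this rule. The genes, context list, markers and motifs were chosen with earlier results of these data known. Sequence came from RefSeq GRCm38.p6. The scripts (Python 3.11.15, numpy 2.4.6, pandas 2.3.3, scipy 1.17.1, pysam 0.24.0) were tested on simulated data. Alternatives were the shorter lists, 50% reciprocal overlap, other windows and flanks, lists of equal length, heights divided by their median, and each replicate alone. With 1 group no test was run.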

Additional observations from a re-analysis of the deposited data

How the results depend on the processing

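Of 47 values recomputed, 26 stayed within tolerance (counts within 1.5 times, shares and the log2 ratio within the 95% interval of the reported value), 19 moved beyond it and 2 changed sign or reached 0. With 50% reciprocal overlap 4 genes had an open promoter in place of 7, without Emx1, Fezf2, Bcl11a and Cux2 (43.8% of all genes), shared sites fell from 53 to 34, replicate 2 peaks seen in replicate 1 from 65.4% to 42.0% (all peaks 53.9%), replicate 1 peaks seen in replicate 2 from 37.9% to 24.3% (all 24.3%), the median log2 ratio from -0.37 to -0.58 (all -0.65) and shared footprints from 65 to 34. In the shorter lists 24 shared sites were left and 83.3% of replicate 2 peaks were found in replicate 1 (all 87.5%). With flanks of 10 kb there were 32 shared sites and 32 shared footprints. With the gene body alone there were 20 and 13, 50% of replicate 2 peaks were seen in replicate 1 and the log2 ratio was 0. With heights divided by their median over shared sites the log2 ratio was 0.08 (all -0.03). With lists of equal length 60.5% of replicate 2 peaks were found in replicate 1 (all 64.6%) and 55.7% of replicate 1 peaks in replicate 2 (all 65.4%). Without Lhx2 and Fezf2, a choice made after seeing the data, 76.7% of replicate 2 peaks were found in replicate 1. Leaving out the genes with the lowest shares had to raise this value. With 1 replicate left out, open promoters were 7 to 8, sites 81 to 140 and footprints 159 to 282, since a single list needs no overlap. Smaller windows hold fewer sites by construction. The cause of the other shifts was not tested. No paired analysis was possible because the series holds 1 group. The depth is unknown, so a site missing from replicate 2 may lie below what that library could detect.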

Other observations

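At the start of Sh2b3, an adaptor protein gene downstream of Cux2, a replicate 2 peak of height 1.83 bordered a shared site of 2.05 and 1.90 without overlap with replicate 1, and replicate 1 had an interval with an FDR of 2.20e-07 there. The downstream Cux2 window also held the start of Pheta1, with 5.10 and 2.35, higher in both replicates than the Cux2 promoter. In the Emx1 window the start of Spr, the sepiapterin reductase gene, measured 3.26 and 2.75, also above the Emx1 promoter in both replicates.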
